A study of Mus musculus with 12 samples.

Results

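The genes described here encode apolipoproteins, the proteins that coat lipoprotein particles, and the protein that loads them with lipid. They are Apoa1, Apoa2, Apoa4, Apoa5, Apob, Apoc1, Apoc2, Apoc3, Apoe and Mttp. They were taken by symbol from the authors' table, and all 10 were found among its 30743 rows. The table covers whole livers of male C57BL/6J fetuses harvested at 15 ± 0.5 days post coitum and sequenced as polyA-selected RNA. The dams of 6 fetuses ate a control diet with 13.5% of its energy from fat, and those of the other 6 ate a high-fat diet (HFD) with 60%, for 12 to 14 weeks. The paper presents these data under maternal obesity and HFD, but gives no weights for the dams of this cohort. The study asked how the HFD changed expression. No value was used for any 1 liver, so the diets are not compared, and every level below is the authors' average over the 12 livers of both diets, with no SD. Maternal diet, maternal obesity and litter cannot be told apart in such a design.

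Lipoproteins carry triglyceride and cholesterol through the blood. In hepatocytes, microsomal triglyceride transfer protein (Mttp) adds lipid to nascent apolipoprotein B (Apob), which forms very low-density lipoprotein (VLDL), while Apoa1 and Apoa2 form the protein frame of high-density lipoprotein (HDL). The smaller apolipoproteins move between particles and set how fast lipoprotein lipase and the receptors of the liver remove them. The yolk sac and intestine of the fetus also make lipoproteins, and macrophages make Apoe.

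The members fell into a group of abundant mRNAs and a group of scarcely listed ones. Apoa1, Apoa2, Apob and Apoe lay above 32 CPM (reads of a gene scaled to a fixed library total, as counts per 1000000 reads), and the other 6 lay under 7 CPM, with no member in between. Of all rows of the table, 11.6% lay above 32 CPM, and of its 18725 protein-coding rows with a known length 17.2%, against 4 of the 10 members. Of the members, which are all protein-coding, 7 lay above 1 CPM, as did 33.1% of all rows and 45.1% of the protein-coding rows. No member sat at the lowest value of the table, an average log2 CPM of -2.71 that 11091 rows shared. The 4 abundant members together made up 1.10% of all CPM, after the lowest value was taken off each row, and the other 6 made up 0.00144%.

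**Figure D1:**
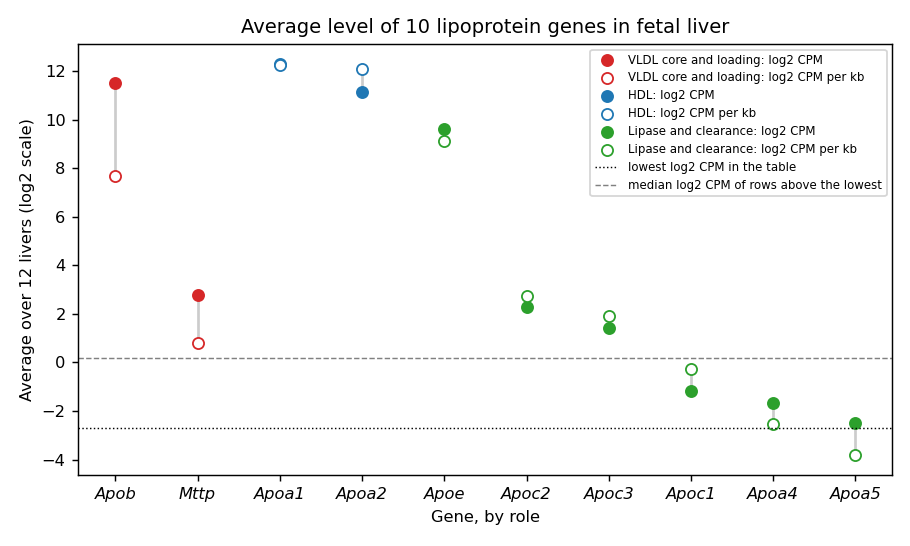
Average level of each member over the 12 livers on a log2 scale, as log2 CPM (filled) and as log2 CPM per kb of the longest annotated mRNA (open), by role. The dotted line is the lowest log2 CPM of the table and the dashed line the median log2 CPM of rows above it. Apoa1, Apoa2, Apob and Apoe stand apart from the other 6 members on both scales.

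Apob, the core protein of VLDL, lies on the plus strand of chromosome 12 from 7977648 to 8016835 (GRCm38, the build of mm10). Its average log2 CPM was 11.50, or 2899 CPM, the 27th highest of the 19652 rows above the lowest value. Its mRNA of 13.9 kb is far longer than those of the other members, so more fragments come from each molecule. Per length, Apob stood at 208 CPM per kb and ranked 217 among 14527 protein-coding genes, and ranked 4 among the members. Mttp, on the minus strand of chromosome 3 from 138089854 to 138144968, had an average log2 CPM of 2.77, or 6.82 CPM. At 1.72 CPM per kb, its listed level was 121 times lower than that of Apob on the same scale.

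Per length, the HDL proteins had the highest levels of the members, whereas in CPM Apob lay between them. Apoa1, the main protein of HDL and the activator of the enzyme that esterifies its cholesterol, lies on chromosome 9 from 46228580 to 46230466. Its average log2 CPM was 12.32, or 5096 CPM, which ranked 13 among rows above the lowest value. Apoa2, the other main HDL protein, lies on chromosome 1 from 171225054 to 171226379 and had 11.14 on the log2 CPM scale, or 2251 CPM. Because the mRNA of Apoa2 is short, at 0.518 kb against 1.03 kb for Apoa1, the levels per length were nearer to each other. They were 4346 CPM per kb for Apoa2 and 4924 CPM per kb for Apoa1, a ratio of 1.13. Per kb these genes ranked 4 (Apoa1) and 6 (Apoa2) among the 14527 protein-coding genes. Without values of single livers, whether this pair differs beyond the spread between livers cannot be said.

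Apoe had the highest listed level of the members grouped here by a role in lipase action and clearance, a group that leaves out Apob. It is a ligand for receptors that take up lipoproteins and lies on the minus strand of chromosome 7 from 19696109 to 19699188. Its average log2 CPM was 9.62, or 787 CPM, and per length it stood at 559 CPM per kb, rank 3 among the members and above Apob by a factor of 2.69. In whole liver, more cells of a type and more RNA per cell cannot be told apart, and the part of macrophages in the Apoe level was not tested. Among 6 listed macrophage markers in the table, 3 lay above 32 CPM, among them C1qb with a log2 CPM of 7.19 and Marco with 7.70, while Emr1 was at the lowest value.

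The remaining members act on lipoprotein lipase or on particle uptake, and all had low listed levels. Apoc2, the cofactor of lipoprotein lipase, had an average log2 CPM of 2.30 (4.91 CPM) and 6.76 CPM per kb. Apoc3, which restrains the same enzyme, had 1.41 on the log2 CPM scale (2.67 CPM) and 3.76 CPM per kb. Apoc1, an inhibitor of receptor binding, had a log2 CPM of -1.19 (0.438 CPM) and 0.824 CPM per kb. Apoa4, an apolipoprotein of chylomicrons best known from the intestine, had a log2 CPM of -1.66. Apoa5, which promotes the action of lipoprotein lipase, was the lowest of the members at a log2 CPM of -2.49, or 0.178 CPM, close to the 0.152 CPM of rows at the lowest value. In order of CPM per kb, the largest step between neighbours lay between Apob and Apoc2, a factor of 30.8. From Apoc2 down through Apoc3, Mttp, Apoc1 and Apoa4 to Apoa5, each step was between 1.80-fold and 4.72-fold on the same scale. Close to the lowest value these steps are imprecise: with that value taken off, the step from Apoa4 to Apoa5 was 9.00-fold in place of 2.47-fold, and that from Apoc1 to Apoa4 was 5.92-fold. How these steps compare with the spread between livers is not known here.

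Genes of 1 cluster had very different listed levels. The part of read counting in these differences was not tested, and a low listed level does not show a silent gene. On chromosome 9, Apoa1, Apoc3, Apoa4 and Apoa5 lie within 43.3 kb, and the genes Apoa1 and Apoc3, on opposite strands, lie 2466 bases apart with their ends facing each other. Per length, Apoa1 was listed 1309 times higher than Apoc3. On chromosome 7, Apoe, Apoc1, Apoc4 and Apoc2 lie within 27.6 kb on the minus strand. Per length, Apoe was listed 82.7 times higher than Apoc2 and 679 times higher than Apoc1, or 1040 times higher than Apoc1 with the lowest value of the table taken off. Apoc4, which is no member and lies 141 bases from Apoc2, had a log2 CPM of 6.18 and 34.6 CPM per kb, above both Apoc1 and Apoc2 per length.

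**Figure D2:**
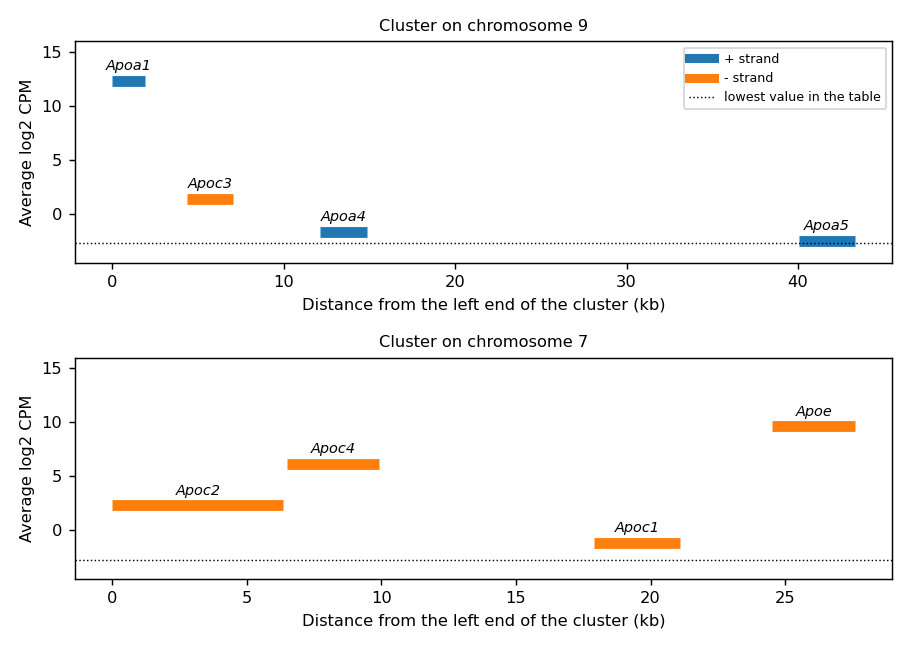
Average log2 CPM of the genes of the clusters on chromosomes 9 (top) and 7 (bottom) against distance from the left end of the cluster in kb, each bar spanning its gene and coloured by strand. Apoa1 and Apoe stand far above their neighbours, and Apoa5 lies just over the dotted line of the lowest value in the table.

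The low values of the table need care, because genes that nearly every cell uses were low in it too. Hspa5, an abundant chaperone of the endoplasmic reticulum, and Canx, the lectin chaperone calnexin, were both listed at the lowest value. Of 14 genes in common use as references for expression, chosen after the data were seen, 6 did not exceed 32 CPM. Among them, Gapdh, a glycolytic enzyme, had 5.20 CPM and Ppia, a prolyl isomerase, 0.165 CPM. A low value of a member is therefore given only as its listed level, and it does not show that the gene was silent in fetal liver.

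The share of genes with a high listed level was smaller where more mRNAs were annotated. Among 11200 protein-coding genes with 1 curated RefSeq mRNA, 23.0% lay above 32 CPM, against 8.82% of the 7062 genes with 2 or more. The share fell from 10.8% with 2 mRNAs to 7.70% with 3 and 6.03% with 4 or more. The share at the lowest value fell as well, from 24.3% with 1 mRNA to 17.6% with 4 or more. The median log2 CPM was -0.26 with 1 mRNA and between -1.06 and -0.72 in the other classes. Apoa1, Apob and Apoa4 have 1 curated mRNA. The other 7 members have 2 to 4, and 5 of these 7 (Apoa5, Apoc1, Apoc2, Apoc3 and Mttp) had low listed levels, while Apoa2 and Apoe, with 4 each, were abundant. The part of transcript number, or of how reads shared by transcripts were counted, in these levels was not tested.

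**Figure D3:**
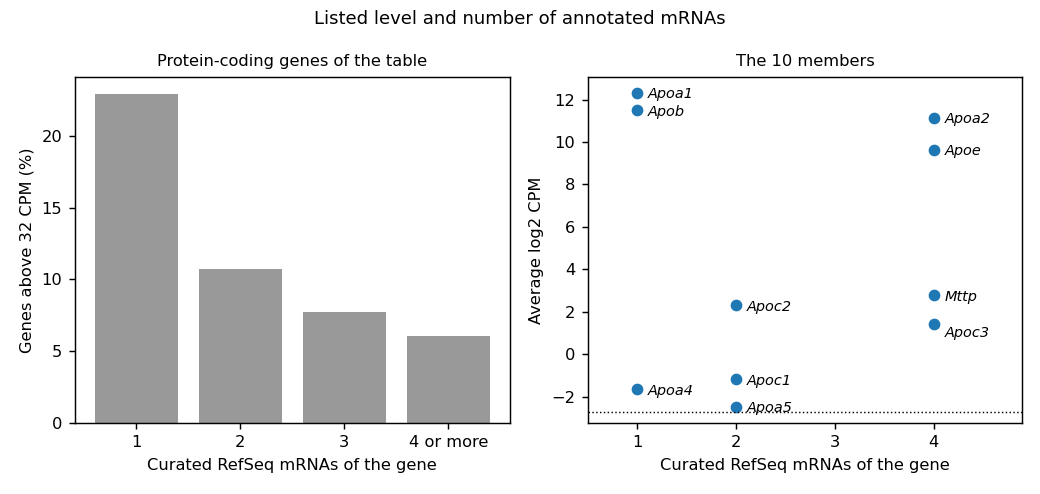
Left, the share of protein-coding genes above 32 CPM by the number of curated RefSeq mRNAs of the gene, which falls from 23.0% with 1 to 6.03% with 4 or more. Right, the average log2 CPM of each member against the same number, with the lowest value of the table as a dotted line. Members with 4 mRNAs span from Apoc3 at 1.41 to Apoa2 at 11.14.

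Exons shared with other genes touch 4 of the low members. In the GENCODE annotation, 79.5% of the exonic bases of Apoc2 also belong to Gm44805, a gene on the same strand that runs through Apoc2 and Apoc4. For Apoa4, 34.9% of the exonic bases overlap Gm47528 and 34.8% overlap Gm10680, both on the opposite strand. For Apoa5, 20.8% overlap Gm47544 on the opposite strand, and for Mttp 7.36% overlap Trmt10a. The library kit does not mark strand, so reads of the overlaps on opposite strands cannot be told apart. For Apoc2 and Gm44805, on the same strand, strand would not separate them either. The annotation used to count the reads is not given, so these overlapping genes may not have been in it. The listed levels of these members are uncertain. No exon of Apoa1, Apoa2, Apob, Apoc1, Apoc3 or Apoe overlapped another gene's exon in the GENCODE annotation.

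The DNA before the annotated exons of members at both ends of the range is shown next, to set the sequence beside the listed levels. The sequences come from RefSeq on GRCm38.p6, where 8 of the 10 members (all but Apoc1 and Apoc3) had a promoter window. Each stretch of 150 bases ends before the RefSeq start or the first GENCODE exon base, whichever lies further upstream. A stretch can therefore end upstream of the RefSeq start and leave out bases next to it. Motif matches on either strand are in capitals.
Apoa1 (chr9:46228430-46228579, plus strand): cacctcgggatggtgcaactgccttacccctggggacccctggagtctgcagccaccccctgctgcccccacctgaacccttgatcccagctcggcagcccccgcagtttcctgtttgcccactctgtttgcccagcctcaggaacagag
Apoa2 (chr1:171224904-171225053, plus strand): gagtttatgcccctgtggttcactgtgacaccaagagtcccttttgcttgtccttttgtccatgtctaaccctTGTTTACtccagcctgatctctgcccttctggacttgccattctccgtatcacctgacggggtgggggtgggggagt
Apob (chr12:7977498-7977647, plus strand): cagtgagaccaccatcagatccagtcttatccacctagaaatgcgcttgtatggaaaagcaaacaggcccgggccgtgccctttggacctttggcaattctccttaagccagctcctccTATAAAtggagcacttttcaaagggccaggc
Apoa5 (chr9:46268458-46268607, plus strand): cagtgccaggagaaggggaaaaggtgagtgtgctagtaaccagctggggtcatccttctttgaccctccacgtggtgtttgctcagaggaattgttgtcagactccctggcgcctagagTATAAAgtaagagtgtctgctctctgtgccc

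Apob and Apoa5, with average log2 CPM of 11.50 and -2.49, both hold the TATA box letters TATAAA, in each case beginning 31 bases before the end of the stretch shown. Apoa2 holds a forkhead core (TGTTTAC) 77 bases before the end, and the stretch of Apoa1 matched none of the 6 motifs searched. These positions count from the end of a stretch, which need not be the RefSeq start, so they are not compared between genes. In whole windows, from 250 bases before to 50 after a start, TATAAA was found in 13.6% of all 32851 windows. It was found in at least 1 window of Apoa2, Apoa5, Apob and Apoe, though the stretch shown for Apoa2 does not hold it. The 8 members had 12 windows, so a share of windows and a list of members with a match are unlike measures. TGTTTAC was found in 3.65% of all windows and in Apoa2 and Apoe among the members. The HNF1 motif GTTAAT (7.10% of windows) was found in Apoc2 and Apoe, the nuclear receptor motif AGGTCA (16.3%) in Apoa2 and Apoc2, and the GC box GGGCGG (35.7%) in Mttp. The HNF4 core CAAAGTCCA (0.475%) was found in none of the 8 members with a window. No stretch shown held more than 1 match, so no matches overlapped there. A match is a run of letters and not a measured binding site.

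Of 20 genes listed as partners of lipoprotein assembly, for lipid loading, folding and export, 17 lay above 1 CPM and 12 above 32 CPM. The 17 count Acat2, at 9.21 CPM, which is not the sterol-esterifying enzyme of that name (Soat2, also listed). The median log2 CPM of the 20 genes was 6.56, against -2.17 for all rows and -0.65 for protein-coding rows with a known length. P4hb, which encodes the small subunit that Mttp needs for transfer, had a log2 CPM of 10.91 and 672 CPM per kb. Mttp itself was listed at 1.72 CPM per kb. P4hb has 1 curated RefSeq mRNA and Mttp has 4, classes whose listed levels differed above. The part of this in the contrast was not tested. Dgat2, which makes triglyceride, had 8.29, and Surf4, a cargo receptor for export from the endoplasmic reticulum, had 8.94. Tm6sf2, a factor of VLDL lipidation, had -2.66, near the lowest value, at which the chaperones Hspa5 and Canx of this list were listed.

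Of 17 other apolipoprotein and related genes, 6 lay above 32 CPM and 5 sat at the lowest value, with a median log2 CPM of -1.91. The abundant ones included Apoh, a phospholipid-binding plasma protein, with a log2 CPM of 10.27, Apom, an HDL carrier of sphingosine-1-phosphate, with 9.88, and Apof with 7.76. Apobec1, the enzyme that edits the Apob mRNA, was at the lowest value. Among 12 lipases and plasma factors found in the table (Angptl8 was not), 4 lay above 32 CPM. Among these were Lcat, which esterifies the cholesterol of HDL, with a log2 CPM of 7.22 and Lpl, lipoprotein lipase itself, with 6.60.

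Among 17 receptors and efflux transporters, 11 lay above 1 CPM and 4 above 32 CPM, with a median log2 CPM of 1.57. Abca1, which passes cholesterol to Apoa1, had 8.87 and Lrp1, a receptor for Apoe-bearing remnants, had 8.34. Of 18 regulators known to act on apolipoprotein genes, 12 lay above 1 CPM and 4 above 32 CPM. These 4 were Rxra (7.68), Cebpa (7.49), Creb3l3 (6.59) and Foxo1 (5.48), with log2 CPM in brackets, whereas Hnf4a was listed at the lowest value.

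**Figure D4:**
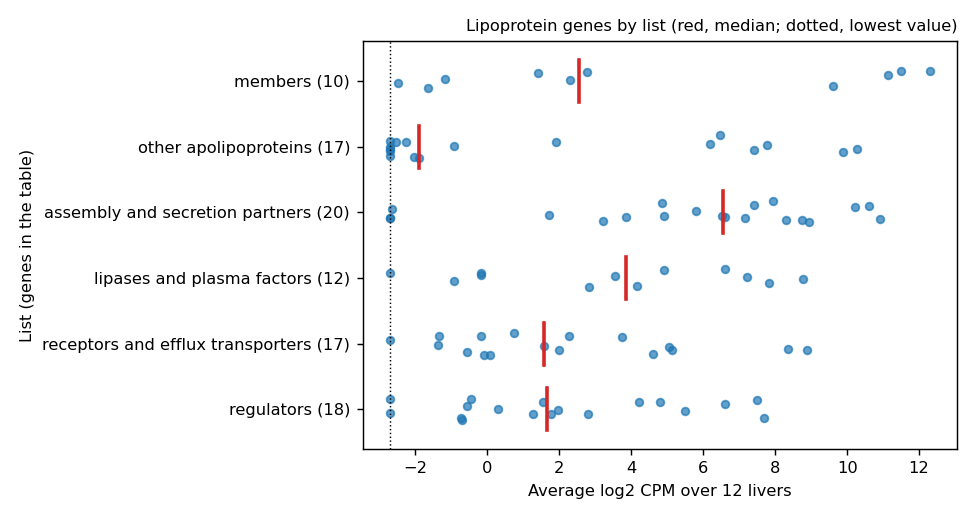
Average log2 CPM of the members and of 5 lists of related genes, 1 point per gene, with the median of each list in red and the lowest value of the table as a dotted line. The assembly and secretion partners have the highest median, 6.56, and the members span the range from -2.49 to 12.32.

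The tissue label was checked against marker genes. Alb (albumin) and Afp (alpha-fetoprotein), which fetal hepatocytes secrete, were the most abundant rows of the hepatoblast list with log2 CPM of 15.95 and 15.73, and 6 of its 7 genes lay above 32 CPM, the exception being Serpina1a at -2.44. Erythroid genes, common in the blood-forming fetal liver, were represented in the table by 3 of the 7 listed symbols. Among them, the log2 CPM was 15.60 for Hba-a2 but -0.51 for Alas2, the heme synthesis enzyme of red cells. None of 6 intestinal or 7 acinar pancreas markers lay above 32 CPM, against 17.2% of protein-coding rows with a known length. Above 1 CPM lay 3 of the intestinal and 4 of the acinar pancreas markers, against 45.1% of those rows. The highest of these markers were Fabp2 at 3.95 and Ctrb1 at 3.64 on the log2 CPM scale, both above Mttp at 2.77. The part of such cells in the levels of the members was not tested. Of 7 yolk sac markers, 2 lay above 32 CPM, Ttr and Slc39a4. Ttr is also on the hepatoblast list, and Apoa4 is itself a member.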

How the data were processed

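Whole livers of 12 male fetuses, 6 for each maternal diet, were sequenced. Per the submitters' processing notes and the paper's methods, adapters were removed with cutadapt 1.2.1, reads were aligned to mm10 with Subread 1.3.6-p1, symbols came from biomaRt, and edgeR compared the diets. The read counter, the annotation release, the normalization and the prior count are not given in the sources used here. The authors deposited 1 table with an average log2 CPM per gene over all livers, which is the sole measurement used. Its other 9 columns hold a second column of average log2 CPM and the authors' own comparison (log2 and signed fold changes, p-values and adjusted p-values, each with a common and a tagwise dispersion), and none was used. The test planned between diets needs a value for every liver and was not run. Depth per liver is unknown.

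CPM were obtained by reversing the log2, and CPM per kb by dividing by the longest mRNA of the gene in GENCODE M21 (GRCm38), which matched 21069 symbols and all 10 members. Genes named are the members and examples of lists by role. Members and lists were chosen with earlier results of these data known. Overlap and rank functions were tested on simulated data. Python 3.11.15, numpy 2.4.6, pandas 2.3.3 and matplotlib 3.10.9 were used.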

Additional observations from a re-analysis of the deposited data

How the results depend on the processing

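All 10 members are known here by the authors' average, so depth and the spread between livers set limits that cannot be given. The count of members in the top 5% of protein-coding genes by CPM per kb was 4. It was also 4 with coding length, without division by length, among rows above 1 CPM, among all rows, and with the lowest value taken off. Settings chosen after seeing the data placed all 10 members against genes with 1 curated mRNA, or against genes with 2 or more. The count was again 4 in each, whichever class a member itself belonged to. The order of Apoa1, Apoa2, Apob and Apoe among themselves depended on length: without it Apob ranked 2 and Apoe 4, and with coding length Apoa2 ranked 1. Of 70 percentiles of single members under these alternatives, 42 moved by less than 5 points. Those that moved more belonged to members listed at low levels. Another test, another filter and leaving out livers were planned for the comparison of diets and were not run, since they need a value for every liver. No paired analysis was possible because no column carries a liver or its replicate number.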

Other observations

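The share of exon that only 1 transcript uses also went with the listed level. Among protein-coding genes with more than 1 annotated transcript, the median log2 CPM was -2.71 in the 846 genes with under 5% of their exonic bases in a single transcript, and 60.5% of them sat at the lowest value. In the 531 genes with 90% or more of such bases, the median was 3.81 and 5.65% sat at the lowest value. Of the members, Apob, with 0.431% of its exonic bases in a single transcript, and Apoa2, with 8.38%, were abundant although genes with such small shares had low medians. Mttp, with 54.2%, and Apoc3, with 48.1%, had log2 CPM of 2.77 and 1.41, above the medians of 1.43 for genes with 50 to 90% and -0.53 for those with 20 to 50%. Apoa1, Apoc2 and Apoe also lay above the medians of their classes. Apoc1, with 29.0%, lay below, at -1.19 against -0.53. Apoa5, with 8.33%, lay below too, at -2.49 against -2.17 for genes with 5 to 20%. Apoa4 has a single annotated transcript and stands outside these classes.

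Among rows above the lowest value with as many curated mRNAs (the class of 2 or more), Apoc2 lay at percentile 73.0 of CPM, Apoc3 at 65.5, Mttp at 76.8, Apoc1 at 34.9 and Apoa5 at 11.1. The annotation used to count the reads is not given in the sources used here, and a present-day annotation can differ from it. The cause of these patterns was not tested.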
